A study of Mus musculus with 4 samples.

Results

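The 34 genes described here encode lysosomal proteins: hydrolases, proteins of the limiting membrane, parts of the proton pump that acidifies the organelle, and transcription factors of lysosomal genes. They were chosen by name and matched by Entrez gene ID and symbol, and all 34 were found among the 27179 genes of the deposited table. RNA was sequenced from leukemia stem cells (LSCs), the cells held to sustain an acute myeloid leukemia (AML), of a murine model on the C57BL/6 strain. The cells came from bone marrow and were sorted as YFP+/Mac-1+/c-Kit+, that is, for a yellow fluorescent protein, a myeloid integrin and a stem and progenitor receptor. The series compares 2 B7-H4-null samples with 2 wild-type samples, and asks which genes differ in expression between them. B7-H4, encoded by Vtcn1, is a cell surface ligand that restrains T cells. The labels name no leukemia-driving gene, no age and no animal, and do not say whether cells of several animals were pooled.

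Lysosomes break down protein, lipid, sugar chains and nucleic acid delivered by endocytosis, phagocytosis and autophagy. Their enzymes work at acid pH, which a vacuolar ATPase maintains by pumping protons across the lysosomal membrane. The factors TFEB and TFE3 bind an E-box, the CLEAR element, in promoters of many lysosomal genes, and are held in the cytoplasm when mTORC1 is active on the lysosome. In the myeloid lineage the compartment also serves killing of microbes and antigen processing, and its gene expression is high in monocytes and macrophages.

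The E-box is shown first, because its share can be set beside that of all promoters. The genes were not picked by this motif. It is known from promoters of many lysosomal genes, however, so a higher share in this list is no independent finding. Most of the promoters searched, 17 of 28, lacked even its core. RefSeq promoters on GRCm38.p6, from 250 bases before to 50 after an annotated start, were at hand for 28 of the 34 genes; Npc1, Ctsb, Ctsh, Asah1, Atp6v1b2 and Atp6v1h had none in the table used. The core CACGTG, which reads the same on both strands, occurred in promoters of 11 of the 28 genes (39.3%). It occurred in 8.09% of all 27025 genes with a promoter. Among the 8882 genes that had a promoter and were expressed enough here to be tested, the share was 12.2%. The other shares of tested genes in this paragraph are also over these 8882. The longer TCACGTG, which contains the core and was searched on both strands, occurred in 10 of 28 (35.7%), against 4.29% of all genes and 7.32% of tested genes. The full palindrome TCACGTGA, nested in both, occurred in 6 of 28 (21.4%), against 1.12% and 2.36%. That palindrome preceded by G and followed by C, the central CLEAR consensus, was found in 0 of 28 and in 0.37% of all genes. A match describes these letters in this window and is no evidence of binding.

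The windows below are chosen as the 6 genes with TCACGTGA, with every such site, and Lamp1, whose promoter held 4 cores and is shown by the first. Each is 30 bases on the strand of the gene, and the capitals mark the core with its flanking T or A. Distances are to the annotated start of the promoter searched, and a gene can have several. For Atp6v1a (44085402 to 44139702) and Ctsa (164832872 to 164841032) that start lies inside the gene.
Gla, chrX:134601215-134601244, minus strand, centred 224 bases before the start: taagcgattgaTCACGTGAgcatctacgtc
Gla, chrX:134601182-134601211, minus strand, centred 191 bases before the start: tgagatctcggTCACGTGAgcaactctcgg
Ctsa, chr2:164833749-164833778, plus strand, centred 9 bases before the start: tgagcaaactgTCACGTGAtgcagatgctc
Ctsa, chr2:164833766-164833795, plus strand, centred 8 bases after the start: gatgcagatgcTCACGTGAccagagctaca
Ctsd, chr7:142387908-142387937, minus strand, centred 95 bases before the start: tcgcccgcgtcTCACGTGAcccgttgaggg
Mcoln1, chr8:3500462-3500491, plus strand, centred 42 bases before the start: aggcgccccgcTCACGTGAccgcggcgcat
Atp6v0d1, chr8:105566050-105566079, minus strand, centred at the start: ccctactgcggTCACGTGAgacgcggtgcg
Atp6v1a, chr16:44139373-44139402, minus strand, centred 128 bases before the start: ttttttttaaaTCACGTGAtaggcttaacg
Lamp1, chr8:13159088-13159117, plus strand, centred 58 bases before the start: agggcaagataTCACGTGgtccagcgccca

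**Figure D1:**
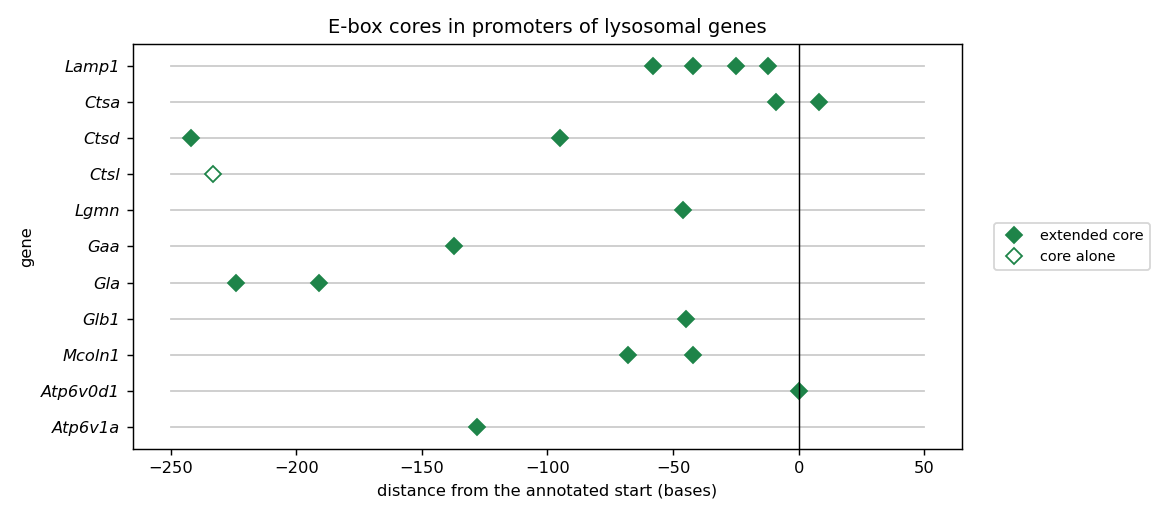
Position of every CACGTG core in the promoters of the 11 lysosomal genes that hold it, as distance in bases from the annotated start; grey lines are the searched windows. Filled diamonds are cores extended by a flanking base, the open diamond for Ctsl is a core alone; Lamp1 has 4 cores within 58 bases of its start.

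The values are RPKM, reads scaled to the length of the gene and the read total of the library. The totals behind the scaling were 9419425 and 10814448 reads in the B7-H4-null libraries and 10144166 and 9933947 reads in the wild-type libraries, and a lysosomal gene had between 6 and 16773 reads per library. Vtcn1 had 1 read in each B7-H4-null library and 0 reads in each wild-type library, so the genotype could not be checked at this depth. Of the sorted proteins, Itgam, a chain of Mac-1, had 82.9 and 59.9 RPKM in B7-H4-null and 114 and 86.9 RPKM in wild type. Itgb2, its other chain, had 123 and 146 RPKM against 213 and 213 RPKM, and Kit 11.0 and 9.37 RPKM against 24.0 and 7.19 RPKM. All 3 were present in every library. Itgam and Itgb2 were lower in each B7-H4-null library than in either wild-type one, as were 28% of all tested genes. Nothing in the labels says that the samples of a genotype are separate animals. The p-values thus cover the spread among these 4 samples alone, and that spread may be technical. Since these are bulk samples, a lower value from fewer cells of a type cannot be told from less RNA per cell.

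The lysosomal genes were expressed at high level in these LSCs of either genotype. By mean RPKM over the 4 libraries, Lamp1 (408 RPKM), Man2b1 (348 RPKM), Ctsz (306 RPKM), Ctsd (304 RPKM), Psap (279 RPKM) and Cd63 (272 RPKM) lay highest, between the 97.9th and 98.7th percentile of the tested genes. The median over the 34 genes was 96.7 RPKM. The lowest were Tfeb (13.7 RPKM), Tfe3 (9.95 RPKM), Npc1 (9.05 RPKM) and Lgmn (1.92 RPKM), the last at the 10.01th percentile. Neighbours in this order, such as Ctsz and Ctsd, differed by less than their spread over libraries.

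**Figure D2:**
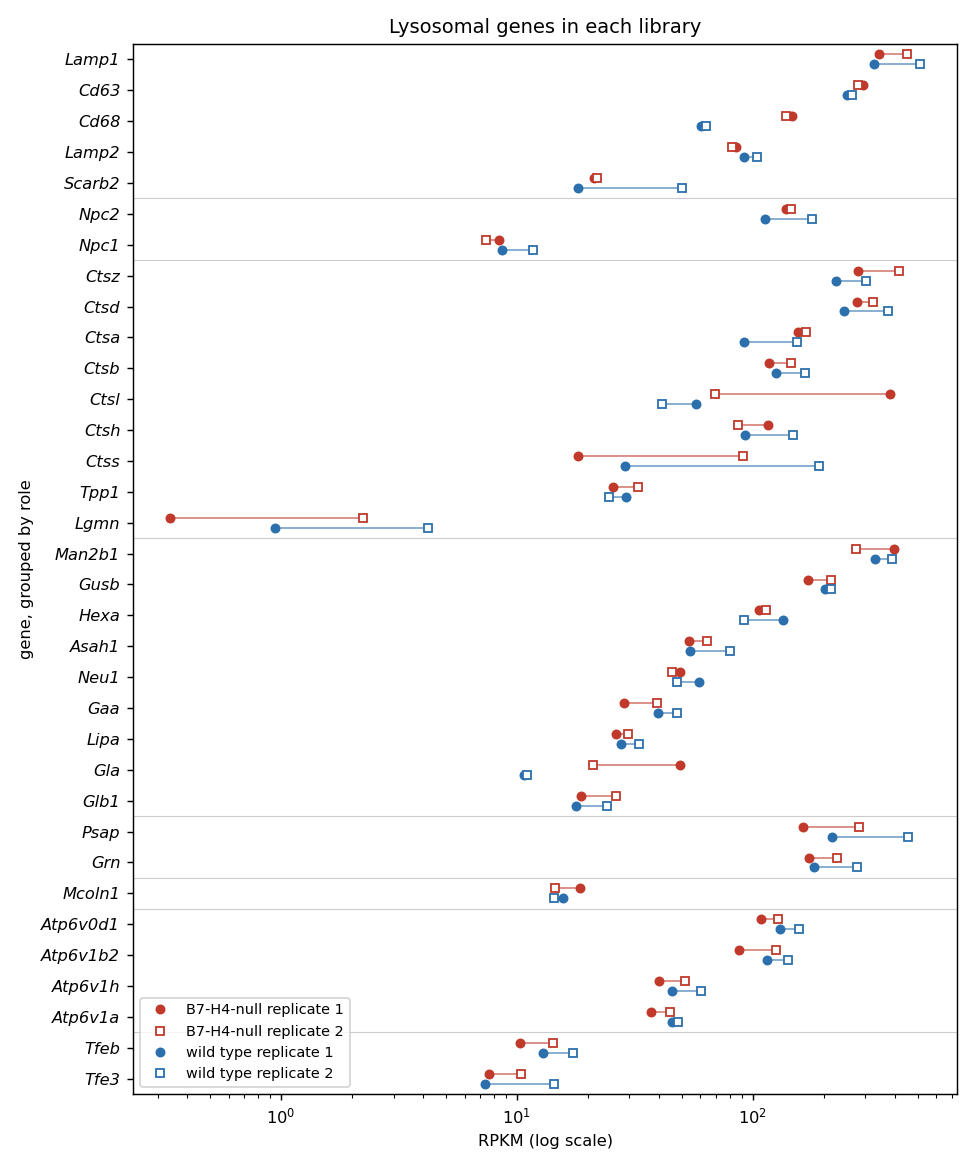
RPKM (log axis) of the 34 lysosomal genes in each library, grouped by role and ordered by mean level; red, B7-H4-null; blue, wild type; filled circles, replicate 1; open squares, replicate 2; lines join the replicates of a genotype. Cd68 and Gla show clearly separate genotypes, and for Ctss, Lgmn and Psap the gap between replicates exceeds that between genotypes.

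None of the 34 lysosomal genes passed the test between genotypes. All 34 were at 1 RPKM or more in at least 2 libraries and so were tested, with limma on log2(RPKM + 1) and Benjamini-Hochberg adjustment over 12107 genes. At an adjusted p of 0.05 it called 0 of 34, against 0.0991% of all tested genes, 0.0413% higher and 0.0578% lower in B7-H4-null. By the p before adjustment, with the same limit of 0.05, Cd68 and Gla were higher in B7-H4-null LSCs (2 genes) and 0 were lower, against 5.05% of all tested genes higher and 7.2% lower. Only Cd68 lay at least 2-fold apart in every pairing of libraries, a distance that 1.67% of tested genes reached in the higher direction and 1.5% in the lower.

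The genotypes did not overlap for 10 genes. Each B7-H4-null library lay above each wild-type library for 5 of them, Cd68, Cd63, Ctsa, Ctsl and Gla, where the background was 16% of tested genes. Each lay below for the other 5, Lamp2, Npc1, Gaa, Atp6v0d1 and Atp6v1a, where it was 28%. As shares of the list both counts are 14.7%, near the first background and under the second. After median-ratio scaling the split was 6 higher and 2 lower, against 22.0% and 22.3% of all tested genes, and after quantile normalization 3 and 8, against 19.1% and 25.5%. The median log2 difference, B7-H4-null minus wild type, was −0.16 over the 34 genes and −0.09 over all tested genes. Leaving out B7-H4-null replicate 1 gave a median of 0.01 over the 34 genes, and leaving out wild type replicate 2 gave 0.07. Leaving out the other replicate gave −0.22 for B7-H4-null and −0.33 for wild type. For 5 genes (14.7%), Cd68, Cd63, Lamp2, Gla and Atp6v0d1, the difference exceeded the gap between the replicates of either genotype, and 31.4% of all tested genes met that condition. The markers of late neutrophils moved with genotype in the same libraries. Of these markers, 13 of 13 were lower in each B7-H4-null library, against 28% of all tested genes, and their part in the lysosomal values was not tested. Their summed level was 8615 and 12508 RPKM in B7-H4-null and 31741 and 24309 RPKM in wild type.

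**Figure D3:**
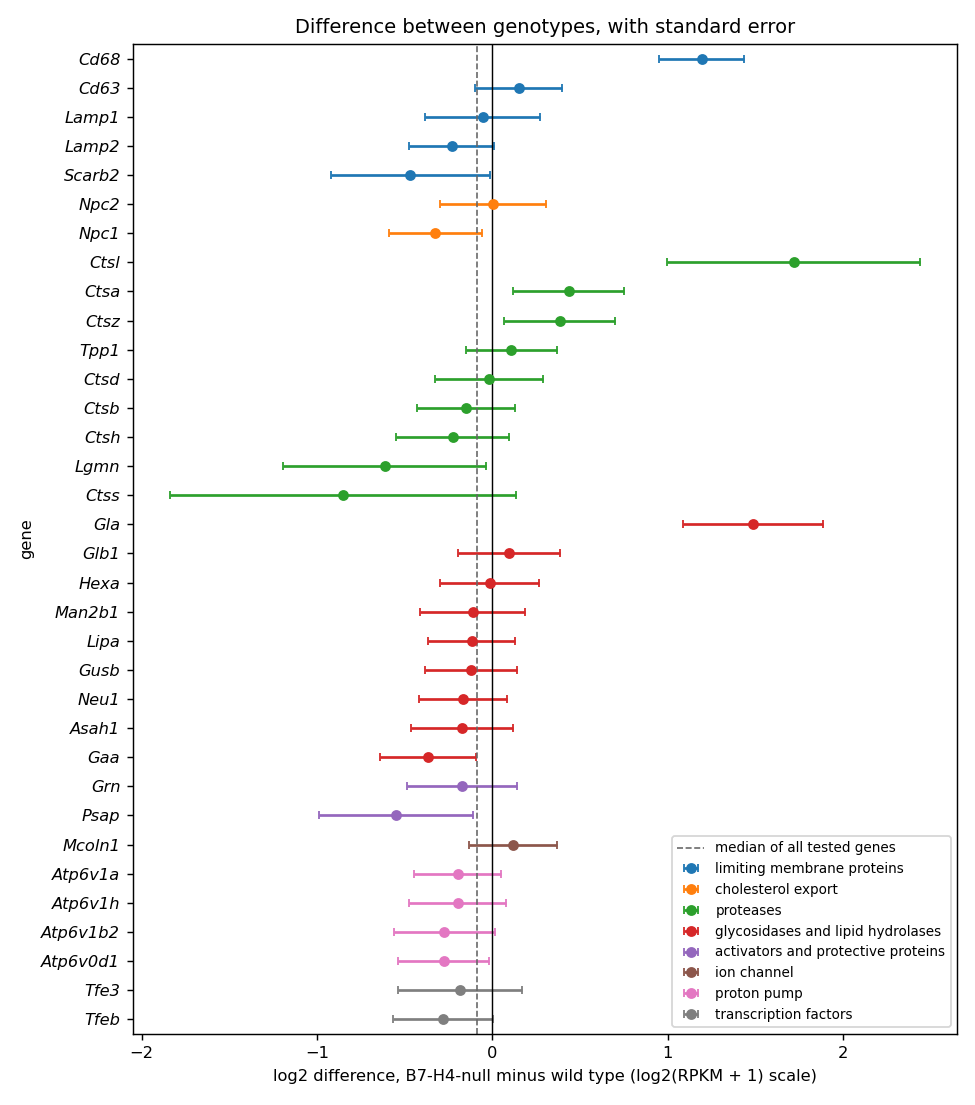
Log2 difference between genotypes (B7-H4-null minus wild type, log2(RPKM + 1) scale) of each lysosomal gene, with its standard error from limma (2 libraries per genotype); colours are roles, the dashed line is the median of all tested genes at −0.09. Ctsl, Gla and Cd68 lie farthest to the right, with a much longer error bar for Ctsl, and the 4 proton pump genes lie left of 0.

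Among proteins of the limiting membrane, Cd68 stood apart. It encodes macrosialin, a heavily glycosylated membrane protein of endosomes and lysosomes that is widely used as a marker of monocytes and macrophages (gene ID 12514, chromosome 11, 69664213 to 69666170, GRCm38.p6). Cd68 had 147 and 139 RPKM in B7-H4-null LSCs, or 1400 and 1512 reads, against 60.5 and 63.4 RPKM in wild-type LSCs, or 619 and 635 reads. Replicates lay close together and the genotypes did not overlap, the lower B7-H4-null library being 2.19-fold above the higher wild-type library. The means of 143 ± 6.18 and 62.0 ± 2.04 RPKM (SD, n = 2 each) differed 2.31-fold. The log2 difference of 1.19 ± 0.24 (SE) was the 126th by p among all tested genes, with an adjusted p of 0.18 by limma that missed the threshold. It stayed between 1.15 and 1.24 when any 1 library was left out.

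The summed level of monocyte and macrophage markers was higher in B7-H4-null, but the single markers did not move together. Of 17 such markers, 5 were higher and 3 lower in each B7-H4-null library than in either wild-type one. Of all tested genes, 16% and 28% were. By mean, 7 of the 17 were lower in B7-H4-null. The summed level of the 17 was 1509 and 1859 RPKM in B7-H4-null and 1123 and 1428 RPKM in wild type, with no overlap. Marco and Timd4 among the 5, and C1qa and C1qc among the 3, were near 0 and not tested. Most of that sum was Ly6c2, a monocyte surface protein, at 1201 and 1458 RPKM in B7-H4-null against 843 and 1079 RPKM in wild type. F13a1 had 95.0 and 235 RPKM against 55.7 and 102 RPKM, and Cd14 17.7 and 46.5 RPKM against 32.9 and 116 RPKM. Vcam1, among the 3 lower, had 12.6 and 1.12 RPKM in B7-H4-null and 93.0 and 30.0 RPKM in wild type. Of the 17, 6 stayed under 1 RPKM in every library, among them the macrophage genes Mertk, Timd4 and C1qb, and 0 were at 0 in all. C1qb, a chain of complement C1q, had 0.200 and 0.609 RPKM in B7-H4-null and 0.835 and 0.569 RPKM in wild type. Whether the monocyte markers have a part in the Cd68 values was not tested.

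The other membrane proteins differed little between genotypes. Cd63, a tetraspanin of late endosomes and azurophil granules, had 293 and 280.2 RPKM in B7-H4-null and 252 and 265 RPKM in wild type, a log2 difference of 0.15 ± 0.25 (SE). The groups did not overlap, but the difference was 1.11-fold in means, and after quantile normalization it was −0.071. Lamp1 and Lamp2 encode the most abundant glycoproteins of the lysosomal membrane. Lamp1 had 344 and 451 RPKM in B7-H4-null against 327 and 512 RPKM in wild type, so the libraries interleaved. Lamp2, also needed for fusion with autophagosomes, had 85.2 and 81.5 RPKM against 92.2 and 104 RPKM, lower in both B7-H4-null libraries. Scarb2, which carries glucocerebrosidase to lysosomes, had 21.3 and 21.9 RPKM in B7-H4-null and 18.1 and 50.1 RPKM in wild type. Its spread lay in wild type replicate 2, without which the log2 difference was 0.24, against −0.47 with all libraries.

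Npc1 and Npc2 act in turn to move cholesterol out of the lysosome. Npc2, the soluble partner, had 138 and 146 RPKM in B7-H4-null against 113 and 178 RPKM in wild type, and the B7-H4-null values lay inside the wild-type range. The membrane protein Npc1 (chromosome 18, 12189694 to 12236506) was 16-fold lower in level, per length, at 8.38 and 7.40 RPKM against 8.69 and 11.7 RPKM. Both B7-H4-null libraries lay below both wild-type libraries, by 1.04-fold at the nearest, and the log2 difference was −0.32 ± 0.26 (SE, adjusted p = 0.66, limma).

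The proteases held the widest spread of all roles, with log2 differences from −0.85 to 1.72 over 9 genes. Ctsl (gene ID 13039, chromosome 13, 64361890 to 64370772) encodes the cysteine protease cathepsin L. Its level was 381 and 69.1 RPKM in B7-H4-null, or 7079 and 1473 reads. In wild type it had 57.7 and 41.2 RPKM, or 1153 and 806 reads. B7-H4-null replicate 1 was far above the other 3 libraries, and replicate 2 was 1.20-fold above the nearer wild-type library. The log2 difference of 1.72 ± 0.72 (SE, adjusted p = 0.41, limma) became 0.50 with B7-H4-null replicate 1 left out, and 2.94 with replicate 2 of that genotype left out. In GENCODE M21 the antisense gene model Gm47123 shares 26.8% of the exon bases of Ctsl, and without strand their reads cannot be told apart.

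The early response genes, known to be induced quickly by stimuli and by cell handling, were also highest in B7-H4-null replicate 1. The 12 genes of that list summed to 12013 and 5567 RPKM in B7-H4-null and to 2281 and 3484 RPKM in wild type. In both B7-H4-null libraries 11 of 12 were higher, against 16% of all tested genes. The list was chosen with earlier results of these data known. Fos, a subunit of AP-1, had 2328 and 1526 RPKM in B7-H4-null against 358 and 1038 RPKM in wild type, and Jun, its partner, 2621 and 982 RPKM against 425 and 317 RPKM. The part of these genes in the Ctsl values was not tested.

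Ctss and Lgmn differed more between replicates than between genotypes. Ctss, cathepsin S, which trims the invariant chain in antigen-presenting cells, had 18.2 and 90.8 RPKM in B7-H4-null and 28.9 and 191 RPKM in wild type. Its replicates were 4.99-fold apart in B7-H4-null and 6.60-fold apart in wild type, replicate 2 being the higher in both. The log2 difference of −0.85 ± 0.99 (SE) became −2.19 with wild type replicate 1 left out and 0.49 with replicate 2 of that genotype left out. Lgmn, legumain, an asparagine-specific protease, had only 6 and 45 reads in B7-H4-null and 18 and 78 reads in wild type. That is 0.34 and 2.22 RPKM against 0.947 and 4.19 RPKM, again with replicate 2 the higher in both genotypes.

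None of the remaining proteases passed the test. Among them the log2 difference was largest for Ctsa, at 0.43 ± 0.31 (SE, adjusted p = 0.62, limma), and Ctsz. It was smaller for Ctsd, Ctsb, Ctsh and Tpp1. Ctsd, the aspartic protease cathepsin D, had 276 and 322 RPKM in B7-H4-null against 243 and 375 RPKM in wild type. Ctsb, a cysteine protease with carboxydipeptidase activity, had 117 and 145 RPKM against 126 and 166 RPKM. Ctsh, an aminopeptidase, had 116 and 86.3 RPKM against 93.2 and 148 RPKM. In each of these 3 genes the libraries of the genotypes interleaved. Ctsz, a carboxypeptidase, had 279 and 416 RPKM in B7-H4-null and 225 and 302 RPKM in wild type, with a log2 difference of 0.39 ± 0.32 (SE, adjusted p = 0.66, limma). Ctsa, which protects beta-galactosidase and neuraminidase in a complex, had 155 and 168 RPKM in B7-H4-null and 92.2 and 153 RPKM in wild type. Its groups did not overlap, yet the nearest libraries differed only 1.01-fold. Tpp1, a tripeptidyl peptidase lost in a neuronal ceroid lipofuscinosis, had 25.6 and 32.7 RPKM against 29.1 and 24.6 RPKM. Exons of Ctsd, Ctsb and Ctsa overlap those of neighbouring gene models by 34.4%, 12.8% and up to 10.5% of their bases, as do those of Hexa by 12.8%, Lamp1 by 9.31% and Glb1 by 5.49%, so the values of these genes carry that uncertainty.

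**Figure D4:**
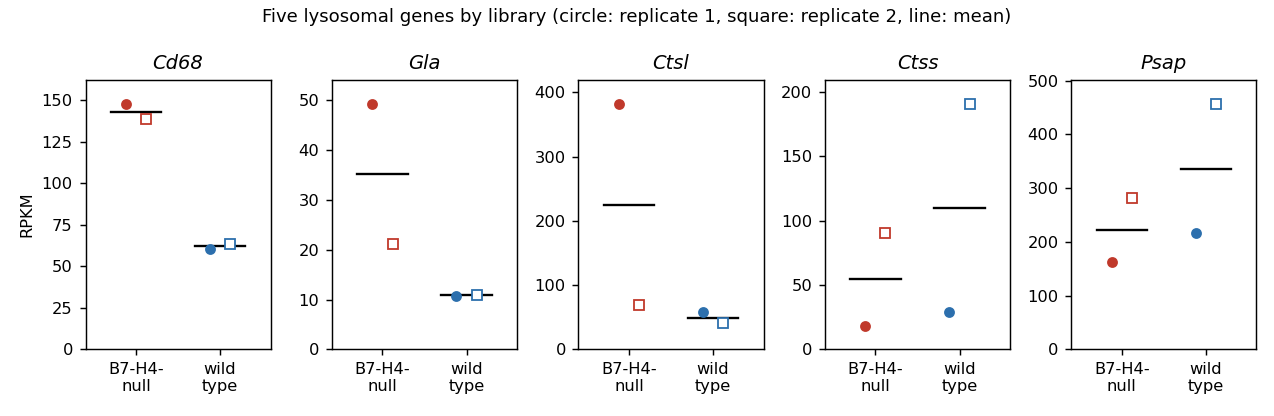
RPKM by library for 5 lysosomal genes picked after their values were seen, B7-H4-null left and wild type right in each panel; circles, replicate 1; squares, replicate 2; lines, means of 2 libraries. Cd68 separates the genotypes with close replicates, Gla and Ctsl are highest in B7-H4-null replicate 1, and Ctss and Psap are higher in replicate 2 of both genotypes.

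Of the 9 glycosidases and lipid hydrolases, Gla alone stood apart from the rest. Gla encodes alpha-galactosidase A, which cleaves terminal galactose from globotriaosylceramide and is lost in Fabry disease (gene ID 11605, chromosome X, 134588169 to 134601005). It had 49.2 and 21.1 RPKM in B7-H4-null, or 1406 and 691 reads, against 10.7 and 11.0 RPKM in wild type, or 330 and 331 reads. Both B7-H4-null libraries lay above both wild-type libraries, by 1.92-fold at the nearest, and replicate 1 was 2.34-fold above replicate 2. The means of 35.2 ± 19.9 and 10.9 ± 0.18 RPKM (SD, n = 2 each) differed 3.24-fold. The log2 difference was 1.49 ± 0.40 (SE, adjusted p = 0.28, limma), or 0.90 with B7-H4-null replicate 1 left out and 2.08 with replicate 2 of that genotype left out. Its promoter, like that of Ctsa, holds a pair of TCACGTGA sites, printed above. As for Ctsl, the higher B7-H4-null library was the one with the higher sum of early response genes, whose part was not tested.

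The other hydrolases of this role had log2 differences between −0.37 and 0.09. Gaa, acid alpha-glucosidase, which degrades glycogen and is lost in Pompe disease, had 28.4 and 39.2 RPKM in B7-H4-null and 39.5 and 47.6 RPKM in wild type. It was lower in both B7-H4-null libraries, by 1.01-fold at the nearest (log2 difference −0.37 ± 0.27, SE, adjusted p = 0.63, limma). Man2b1, an alpha-mannosidase of glycoprotein breakdown, had 399 and 275 RPKM against 329 and 390.4 RPKM. Gusb, beta-glucuronidase, had 171 and 215 RPKM against 202 and 216 RPKM. The ranges of the genotypes overlapped for both of these abundant enzymes. Hexa, the alpha subunit of beta-hexosaminidase lost in Tay-Sachs disease, had 107 and 113 RPKM in B7-H4-null and 134 and 92.0 RPKM in wild type. Glb1, beta-galactosidase, had 18.7 and 26.3 RPKM against 17.8 and 24.2 RPKM, and Neu1, a sialidase, 49.1 and 45.4 RPKM against 59.1 and 47.9 RPKM. Neither enzyme separated the genotypes. Lipa, the acid lipase that frees cholesterol from its esters, had 26.2 and 29.5 RPKM against 27.7 and 33.1 RPKM. Asah1, acid ceramidase, had 53.4 and 63.9 RPKM in B7-H4-null and 54.2 and 80.5 RPKM in wild type, and here too the libraries interleaved.

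Psap and Grn encode secreted precursors that are cut within lysosomes and support other enzymes. Psap, the precursor of the saposins that present sphingolipids to hydrolases, had 163 and 282 RPKM in B7-H4-null and 217 and 456 RPKM in wild type. Replicate 2 was 1.73-fold above replicate 1 in B7-H4-null and 2.10-fold above it in wild type, and the log2 difference of −0.55 ± 0.44 (SE, adjusted p = 0.65, limma) became −1.09 with wild type replicate 1 left out and −0.02 with replicate 2 of that genotype left out. Grn, progranulin, which binds prosaposin, had 174 and 227 RPKM in B7-H4-null against 182 and 276 RPKM in wild type, with the same library order. Mcoln1, the lysosomal calcium channel TRPML1, had 18.4 and 14.5 RPKM against 15.7 and 14.3 RPKM.

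All 4 proton pump genes had a lower mean in B7-H4-null, by a similar amount, and 0 of 4 passed the test. Their log2 differences lay between −0.28 and −0.20, with standard errors of 0.25 to 0.29. Most tested genes also lay below 0: the median over all of them was −0.09, and 41.5% lay above 0. These differences were below 0 after median-ratio scaling and after quantile normalization as well, but Atp6v1h was at 0.0023 without wild type replicate 2. Leaving out B7-H4-null replicate 1 brought Atp6v1b2 to −0.018, Atp6v1h to −0.017, Atp6v1a to −0.068 and Atp6v0d1 to −0.16. Atp6v0d1, a subunit of the membrane sector, had 109 and 129 RPKM in B7-H4-null and 131 and 157 RPKM in wild type. Atp6v1a, the catalytic subunit of the cytosolic sector, had 37.1 and 44.6 RPKM against 45.5 and 48.2 RPKM. For these genes both B7-H4-null libraries lay below both wild-type libraries, by 1.02-fold at the nearest in each. Atp6v1b2, the nucleotide-binding partner of the catalytic subunit, had 87.9 and 126 RPKM against 115 and 141 RPKM. Atp6v1h, a regulatory subunit, had 40.0 and 51.7 RPKM against 45.4 and 60.3 RPKM. In each of the 4 genes B7-H4-null replicate 1 was the lowest library and wild type replicate 2 the highest.

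The transcription factors Tfeb and Tfe3 were low and did not separate the genotypes. Tfeb had 10.3 and 14.2 RPKM in B7-H4-null and 12.9 and 17.3 RPKM in wild type, a log2 difference of −0.28 ± 0.28 (SE, adjusted p = 0.73, limma). Tfe3 had 7.65 and 10.45 RPKM in B7-H4-null and 7.35 and 14.4 RPKM in wild type, a log2 difference of −0.19 ± 0.35 (SE, adjusted p = 0.86, limma). Their activity is set largely by location in the cell, which RNA levels do not show. The 10 genes with TCACGTG in their promoter had a median log2 difference of −0.04, with 2 genes entirely above and 3 entirely below wild type. The 18 genes whose promoter lacked it had a median of −0.12, with 3 higher and 1 lower. Over all tested genes the median was −0.09, with 16% higher and 28% lower. Whether the genes with and without the motif differ was not tested.

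Most of the 34 genes shared a pattern across libraries that did not follow genotype. Wild type replicate 2 was above wild type replicate 1 for 29 of 34 genes (85.3%), against 53.5% of all tested genes. B7-H4-null replicate 2 was above B7-H4-null replicate 1 for 24 (70.6%), against 61.2%. Both held for 22 genes (64.7%), against 38.8%. Wild type replicate 2 was the highest of the 4 libraries for 22 genes (64.7%), against 33.6% of all tested genes, and B7-H4-null replicate 1 the lowest for 14. Summed over the 34 genes, the level was 3954 and 4186 RPKM in B7-H4-null and 3412 and 4716 RPKM in wild type, so the wild-type libraries were farther apart than the genotypes. These shares describe 4 libraries. The 108 further lysosomal genes tested lay nearer to all genes: replicate 2 was above replicate 1 for 66 (61.1%) in B7-H4-null and for 65 (60.2%) in wild type. Of the 34, Ctsl, Neu1 and Mcoln1 went the other way in both genotypes. Of the 17 monocyte and macrophage markers, 11 were higher in replicate 2 than in replicate 1 of B7-H4-null, and 9 in wild type. Of all tested genes, 61.2% and 53.5% were. The dendritic cell list had 7 of 10 and 6 of 10, and the late neutrophil list 9 of 13 and 4 of 13. The part of these lists in the library pattern was not tested.

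**Figure D5:**
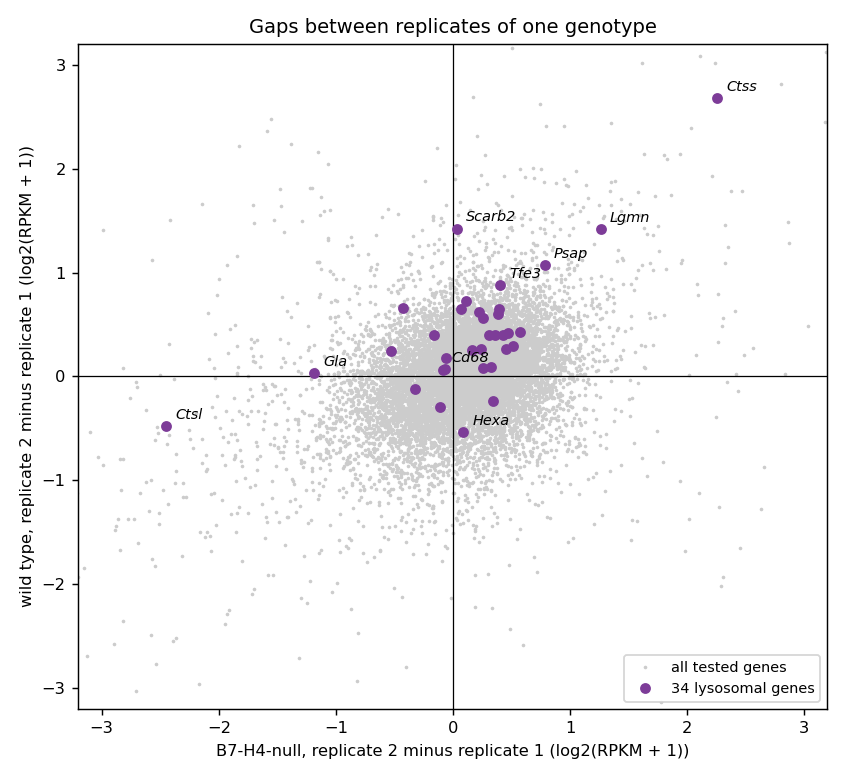
Gap between the replicates of each genotype on the log2(RPKM + 1) scale, replicate 2 minus replicate 1, for B7-H4-null (x axis) and wild type (y axis); purple, the 34 lysosomal genes; grey, all tested genes, of which 54 lie outside the axes. The upper right quadrant holds 22 of the 34, with Ctss, Lgmn and Psap among the farthest, while Ctsl and Gla lie to the left.

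The wider lysosomal system, 118 further genes in 5 lists, gave the same count of calls. Of 108 that were tested, 0 rose and 0 fell by limma, and before adjustment a p under 0.05 was reached by 1 that was higher and 7 that were lower, where 5.05% and 7.2% of all tested genes did so. Both B7-H4-null libraries were above both wild-type libraries for 6 (5.56%) and below for 27 (25%), against 16% and 28% of all tested genes. The median log2 difference was −0.16.

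Of 35 further hydrolases tested, Plbd1, a phospholipase B-like protein of granulocytes and monocytes, differed most by p. It had 3.33 and 2.58 RPKM in B7-H4-null and 17.1 and 11.98 RPKM in wild type, 4.92-fold lower in means (log2 difference −1.96 ± 0.28, SE, adjusted p = 0.11, limma). The nearest libraries were 3.59-fold apart. Dnase2a, the acid DNase, had 61.7 and 68.6 RPKM against 44.3 and 32.4 RPKM, higher in both B7-H4-null libraries. Smpdl3a, a phosphodiesterase related to acid sphingomyelinase, had 50.7 and 70.3 RPKM in B7-H4-null and 93.2 and 104 RPKM in wild type. None of these passed over all genes (adjusted p = 0.34 for Dnase2a and 0.37 for Smpdl3a, limma).

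Among 25 further membrane proteins tested, 0 were higher and 6 (24%) lower in each B7-H4-null library than in either wild-type one, a share below the 28% of all tested genes. Abcb9, a peptide transporter, had 1.94 and 1.25 RPKM in B7-H4-null and 4.82 and 2.84 RPKM in wild type. Slc36a1, a proton-coupled amino acid transporter, had 12.5 and 19.1 RPKM against 23.0 and 27.4 RPKM. Neither passed, with an adjusted p of 0.36 for Abcb9 and 0.42 for Slc36a1 (limma). Mfsd8, a transporter-like protein lost in a ceroid lipofuscinosis, had 6.02 and 5.09 RPKM in B7-H4-null and 9.85 and 6.20 RPKM in wild type.

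Of 21 genes that sort enzymes to lysosomes, 0 were higher and 6 (28.6%) lower in each B7-H4-null library than in either wild-type one, near the 28% of all tested genes. Igf2r, the large mannose 6-phosphate receptor, had 0.143 and 0.456 RPKM in B7-H4-null and 2.94 and 1.29 RPKM in wild type (log2 difference −1.22 ± 0.36, SE, adjusted p = 0.31, limma). Igf2r passed the filter on low values only through the wild-type libraries, so its direction was partly set by that filter. Sort1, sortilin, had 40.3 and 35.7 RPKM against 61.6 and 48.8 RPKM. The adaptor subunits Ap1g1 and Ap3m1 had 15.5 and 14.8 RPKM against 21.7 and 22.8 RPKM, and 6.91 and 9.70 RPKM against 10.8 and 13.4 RPKM. In these 4 genes the genotypes did not overlap, and 0 passed the test.

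Of 14 further proton pump subunits, 1 was higher and 2 lower in each B7-H4-null library than in either wild-type one, against 16% and 28% of all tested genes, with a median log2 difference of −0.16. Atp6v1d had 20.8 and 28.7 RPKM in B7-H4-null and 28.4 and 37.7 RPKM in wild type, and Atp6v0e 109.6 and 189 RPKM against 166 and 225 RPKM. Atp6v0a2 had 11.1 and 10.9 RPKM against 12.1 and 15.7 RPKM. Atp6v1g2, near the limit of the filter, had 1.28 and 1.05 RPKM against 0.858 and 0.539 RPKM, and passed the filter only through the B7-H4-null libraries, so its direction too was partly set by that filter.

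Among 13 tested genes of the TFEB relatives and of nutrient sensing on the lysosome, 1 (7.69%) was higher and 5 (38.5%) lower in each B7-H4-null library than in either wild-type one, against 16% and 28% of all tested genes. Zkscan3, known as a repressor of autophagy and lysosomal genes, had 13.7 and 13.04 RPKM in B7-H4-null and 21.2 and 25.8 RPKM in wild type. Fnip1, a partner of folliculin in the control of mTORC1 and TFE factors, had 14.4 and 11.4 RPKM against 24.4 and 20.8 RPKM. Tfec, a relative of TFEB known from macrophages, had 53.1 and 45.9 RPKM against 74.0 and 62.9 RPKM, above Tfeb and Tfe3 in level per length. Rragc, a Rag GTPase, had 31.2 and 45.2 RPKM against 42.7 and 63.1 RPKM. The adjusted p was 0.33, 0.33, 0.52 and 0.60 for these 4 genes (limma).

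Most markers of lymphoid, erythroid and stromal cells were near 0, but single genes of these lists, Cd79b, Nkg7 and Pecam1, were well expressed. T and NK cell genes summed to 21.7 and 39.6 RPKM in B7-H4-null and 31.8 and 30.0 RPKM in wild type, of which Nkg7 made nearly all, and 9 of 10 stayed under 1 RPKM, with Cd8b1 at 0. B cell genes summed to 60.9 and 63.8 RPKM against 36.8 and 46.4 RPKM, mostly Cd79b, with Pax5 at 0. Erythroid genes summed to 4.12 and 1.49 RPKM against 2.19 and 2.75 RPKM. Megakaryocyte genes summed to 40.6 and 21.6 RPKM against 35.0 and 21.7 RPKM, and stromal and endothelial genes to 38.3 and 32.8 RPKM against 19.4 and 19.6 RPKM, mostly Pecam1. Dendritic cell genes summed to 160.5 and 194 RPKM against 58.1 and 88.5 RPKM, but the single genes did not move together. Of the 10 genes, 2 were higher and 1 lower in each B7-H4-null library than in either wild-type one. Of all tested genes, 16% and 28% were. The 2 higher were Flt3 and Bst2. Flt3, which early progenitors also express, had 99.3 and 103 RPKM in B7-H4-null and 8.90 and 23.0 RPKM in wild type. Bst2, an interferon-induced membrane protein, had 44.5 and 69.4 RPKM against 33.3 and 40.1 RPKM. For H2-Ab1 the libraries of the genotypes interleaved. By mean, 4 of the 10 were lower in B7-H4-null, among them Cd74 and H2-Aa. In every library 5 of the 10 stayed under 1 RPKM.

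The genes outside the list whose pattern was most like the mean z-score of the 34 lysosomal genes over the 4 libraries were Csnk2a2, a catalytic subunit of casein kinase, Sft2d1, Pigx, the unnamed gene ID 100504160 and Umad1, each with a Pearson's r of at least 0.9995. Csnk2a2 had 12.996 and 17.5 RPKM in B7-H4-null and 13.1 and 22.7 RPKM in wild type, the library order of most lysosomal genes. An r over only 4 libraries carries little weight, and 102 of 12073 other tested genes (0.845%) had an r above 0.99.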

How the data were processed

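RNA of 2 B7-H4-null and 2 wild-type LSC samples was sequenced from TruSeq version 2 libraries on a HiSeq2500, per the labels' protocols. The submitters' processing notes name TopHat2 2.0.12 and GRCm38; for the counting program, annotation and strand setting the sources used here give nothing. The deposited table holds RPKM values by the authors, a unit read from the values (column sums of 521931 to 558518, and steps that depend on the gene). Whole reads and library totals were recovered from those steps, to within 0.003 read for 14606 of 14608 genes above 0 in every library, and describe depth only; precision is limited by 2 libraries per genotype.

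Symbols came from RefSeq for 25275 IDs and GENCODE M21 for 18, leaving 1886 without. The 12107 genes reaching 1 RPKM in 2 or more libraries were tested with limma 3.58.1 in R 4.3.3 on log2(RPKM + 1), genotype as the only term, with a mean-variance trend, two-sided, adjusted over all 12107 genes at 0.05. The log2 scale with this pseudocount understates changes of low genes. The code was tested on simulated reads. An exact permutation test of 2 against 2 cannot go below p = 0.333, so none was used. Members and lists were chosen with earlier results of these data known. Named are all 34 members, up to 4 genes of each further list by smallest p, and of marker lists the sums and highest genes; others were chosen after their values were seen. A few genes that this rule names are not reported here. Alternatives were a pseudocount of 0.1, no filter or one at 5 RPKM, 2 scalings, no trend, a replicate block and each library left out.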

Additional observations from a re-analysis of the deposited data

How the results depend on the processing

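No lysosomal gene was called under any of the 11 alternatives, nor was any gene of the wider lists; the smallest adjusted p among the 34 was 0.0828 (Ctsl, without B7-H4-null replicate 2). All tested genes gave 12 calls, 0 with no filter on low values (where the p before adjustment was under 0.05 for 799 higher and 1088 lower genes), 21 with the replicate block, and 0 to 56 when a library was left out. The labels do not say that replicate numbers pair the samples, and 2 pairs cannot settle it: deviations of same-numbered libraries from their group means had a Pearson's r of 0.247 across all tested genes and 0.678 across the 34, and genes are not independent replicates. Quantile normalization gave 3 genes with each B7-H4-null library above wild type and 8 with each below, against 5 and 5. Median-ratio scaling gave 6 higher and 2 lower. Leaving out a library, which eases the condition of no overlap, gave 7 to 12 higher and 7 to 22 lower. In those fits 25.6% to 33.6% of all tested genes were higher and 38.5% to 49.8% lower. The median of the 34 genes moved by less than the spread between libraries (SD 0.26) under all 11.

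Cd68, Ctsl, Gla, Ctsa and Ctsz lay above 0, and Lamp2, Npc1, Gaa, Neu1, Psap, Atp6v0d1, Atp6v1a, Atp6v1b2 and Tfeb below 0, under all alternatives run. Their size was less steady: leaving out a library gave 0.10 to 0.67 for Ctsz, 0.070 to 0.80 for Ctsa, −0.52 to −0.13 for Npc1, −0.59 to −0.14 for Gaa and −0.50 to −0.064 for Tfeb. The direction turned for others, all uncalled, and the cause was not tested. With quantile normalization Cd63 was at −0.071 and Npc2 at −0.090. With median-ratio scaling Lamp1 was at 0.049, Ctsd at 0.085 and Hexa at 0.088. Leaving out a library gave −0.38 to 0.27 for Lamp1, −1.18 to 0.24 for Scarb2, −0.32 to 0.33 for Npc2, −0.35 to 0.051 for Ctsb, −0.33 to 0.29 for Ctsd, −0.56 to 0.10 for Ctsh, −2.19 to 0.49 for Ctss, −1.32 to 0.094 for Lgmn, −0.063 to 0.28 for Tpp1, −0.14 to 0.33 for Glb1, −0.29 to 0.041 for Gusb, −0.28 to 0.25 for Hexa, −0.38 to 0.15 for Man2b1, −0.24 to 0.0067 for Lipa, −0.46 to 0.11 for Asah1, −0.47 to 0.12 for Grn, −0.046 to 0.28 for Mcoln1, −0.40 to 0.0023 for Atp6v1h and −0.63 to 0.25 for Tfe3. Lgmn was left out by the filter at 5 RPKM. Fits without a library rest on the remaining pair to judge the spread of the lone one.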
